A study of Mus musculus with 32 samples.

Results

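Fgf1 and Fgf10 are fibroblast growth factors, and this comparison set mouse skin organoids grown with forskolin and Fgf1 against organoids grown with forskolin and Fgf10 early in long-term culture. The organoids were 3-dimensional keratinocyte cultures started from mouse skin (strain Bl/6), and forskolin is a compound that raises cyclic AMP. The members were chosen by the medium and culture time given for each library: 2 libraries with Fgf1 and 4 with Fgf10, 6 of the 32 libraries of the series. All 6 came from organoids of passages 7 to 12, kept within 3 months of culture. The titles of the Fgf10 libraries count 7 days from the last passage and those of the Fgf1 libraries count 7 days of culture. Whether 2 replicates stem from different mice or different cultures is not stated, so a p-value here reflects the spread among these libraries, which may be technical. The other organoids used for the spread were 4 early libraries with forskolin and an inhibitor of TGF-beta signalling, 2 early libraries with that inhibitor alone, and 6 late libraries with forskolin and Fgf1 (passages 23 to 30, within 6 months). Unpassaged organoids, grown for 7 days, gave 1 library with forskolin and Fgf1 and 1 with forskolin and Fgf10.

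Fibroblast growth factors bind receptor tyrosine kinases and switch on the RAS-ERK cascade, which in turn induces its own inhibitors, such as the dual specificity phosphatases and the Sprouty proteins. Fgf10 is made by mesenchyme and acts mainly on the epithelial splice form of Fgfr2, whereas Fgf1 binds all 4 receptors. In the epidermis, keratinocytes divide in a basal layer on a basement membrane, then pass through the spinous and granular layers and end as cornified envelopes, which are cross-linked protein shells.

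Gene expression was counted at the 3′ ends of transcripts by CEL-seq2. Total counts were 2435090 and 2562017 in the Fgf1 libraries and 1489911 to 1994447 in the Fgf10 libraries, so the Fgf1 libraries were the deeper ones. Levels are given as CPM, the usual depth-scaled count, with TMM factors over the 23 organoid libraries, and since CEL-seq2 counts 1 end per transcript they are not divided by length. The markers of the labelled cell type were present: Krt14 and Krt5, the keratins of basal keratinocytes, ranked 2 and 3 among all genes by mean CPM. Among markers of other cell types, all 6 red blood cell markers were at 0 in the 6 libraries and no muscle and adipocyte marker reached 1 CPM. Summed Merkel cell and nerve markers, mostly Sox2, stood at 10.1 and 11.7 CPM with Fgf1 and 0.52 to 12.6 CPM with Fgf10, immune markers at 13.7 and 16.2 CPM against 10.6 to 42.8 CPM, and melanocyte and endothelial markers at no more than 6.16 CPM. Of 12 fibroblast markers 4 were at 0 in all 6 libraries and the summed level, 286 to 548 CPM with Fgf1 and 31.7 to 203 CPM with Fgf10, was nearly all Sparc, which keratinocytes also make. The summed hair matrix and inner root sheath markers, of which 10 of 18 were at 0 in all 6 libraries, stood at up to 148 CPM with Fgf1 and 154 to 174 CPM with Fgf10, mostly from Gata3. The part of other cell types in the results was not tested. Replicate 1 of each medium shared its list of reported genes with the unpassaged libraries, and the other 4 libraries shared a second list. These 2 lists are called source tables here; the labels do not say what they mark.

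The Fgf10 libraries also differed among themselves in sex-linked transcripts. Xist, which is expressed from the inactive X chromosome of females, stood at 19.1, 22.0 and 52.1 CPM in Fgf10 replicates 1, 2 and 3, and at 0.66 CPM in replicate 4. The Y-linked genes Ddx3y and Eif2s3y together stood at 1.63 to 4.13 CPM in those 3 libraries and at 141 CPM in Fgf10 replicate 4. In the Fgf1 libraries Xist was at 0 and 0.40 CPM, and the 2 Y-linked genes summed to 99.2 and 102 CPM. Among the 12 early libraries only Fgf10 replicates 1, 2 and 3 had this Xist pattern. For those 3 libraries the medium and the sex of the source animal cannot be told apart. Fgf10 replicate 4 is the single Fgf10 library with the sex-linked pattern of the Fgf1 libraries. A fit of the 12 early libraries with the sex-linked class as a term therefore takes its Fgf10 level from replicate 4 alone. The same holds for a fit of the libraries with Y-linked counts. These fits and a comparison with Fgf10 replicate 4 alone are not separate checks.

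No gene passed the test of Fgf1 against Fgf10 when all 18 passaged organoid libraries shared one estimate of the spread. At a Benjamini-Hochberg adjusted p of 0.05, edgeR's quasi-likelihood test called 0 of 9919 genes (0.00%), with 328 at an unadjusted p under 0.05, and Hoxb9 came nearest with an adjusted p of 0.0841. DESeq2 on the same libraries and genes called 15, of which 2 were higher with Fgf1 and 13 lower. When only the 12 early libraries were fitted, edgeR called 23 of 9184 genes, 10 higher with Fgf1 (0.109%) and 13 lower (0.142%). The biological coefficient of variation was 0.413 with the late libraries and 0.289 without them. The calls below are those of the 12 early libraries, a setting taken up after the 18-library count was seen, and the adjusted p-values of single genes are edgeR's from that fit. All 23 genes had CPM that did not overlap between the 2 media and 1 direction in both source tables, which describes genes called on these same libraries and is no separate support. The count rested on single libraries: it was 0 without Fgf1 replicate 1, 10 without Fgf1 replicate 2, and 20, 3, 13 and 52 without Fgf10 replicates 1, 2, 3 and 4. With the sex-linked class as a term 8 genes were called, all lower with Fgf1 and 7 of them among the 23, and within the libraries that had Y-linked counts 1 gene, Mid1, was called. A permutation test of 2 libraries against 4 cannot go below an exact two-sided p of 0.0667.

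**Figure D1:**
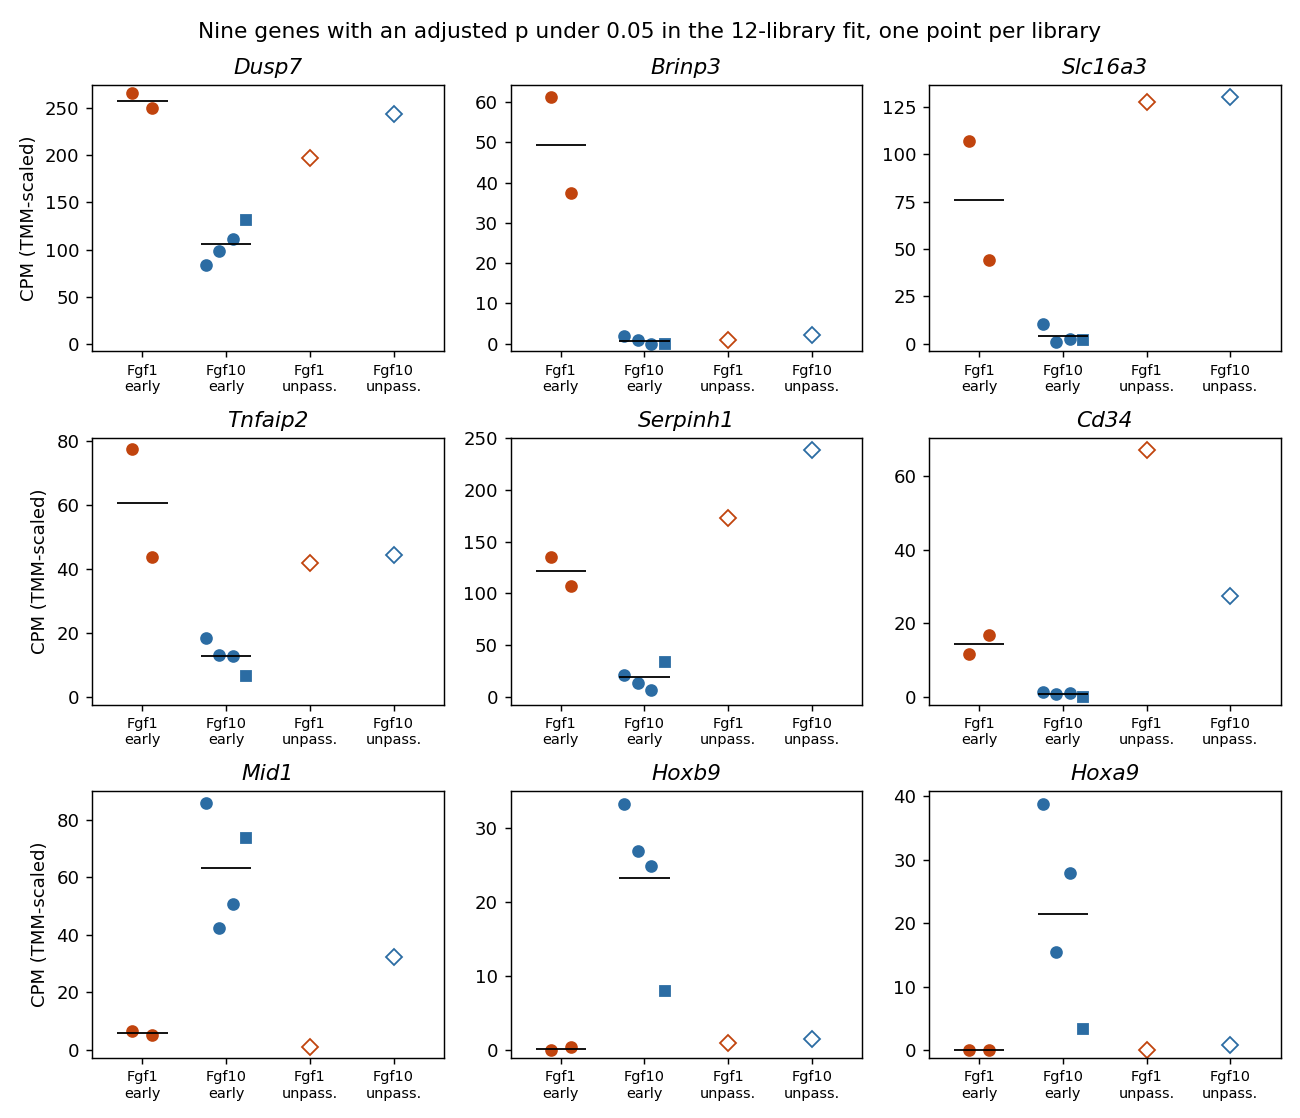
CPM of 9 of the 23 genes called in the fit of the 12 early libraries; each point is 1 library, black lines are group means, the blue square is Fgf10 replicate 4 and open diamonds are the single unpassaged libraries. Both Fgf1 points lie above all 4 Fgf10 points for Dusp7, Brinp3, Slc16a3, Tnfaip2, Serpinh1 and Cd34, and below them for Mid1, Hoxb9 and Hoxa9.

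Dusp7 was the called gene nearest to growth factor signalling. It encodes a phosphatase that removes the activating phosphates from ERK, and lies at chr9:106368632-106375724 (mm10, plus strand). Its level was 266 and 250 CPM in the Fgf1 libraries, and 83.8, 98.4, 111 and 132 CPM in Fgf10 replicates 1 to 4. Both Fgf1 libraries were above all 4 Fgf10 libraries, by a log2 fold change of 1.29 ± 0.24 (SE, adjusted p = 0.0458). With the sex-linked term the difference was 0.97 (adjusted p = 0.895), so the call was lost. The 4 early libraries with forskolin and the TGF-beta inhibitor stood at 125 to 193 CPM and the 6 late Fgf1 libraries at 83.03 to 151 CPM, both below the early Fgf1 libraries for this gene.

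Dusp7 was the 1 called gene among the feedback inhibitors of ERK. Of the 14 measured of 23 listed, 2 (Dusp7 and Spred1) were higher in both Fgf1 libraries than in all Fgf10 libraries, as were 7.32% of all genes, and 1 (Dusp16) was lower in both, as were 8.63% of all genes. The median log2 fold change of the list was 0.11, beside -0.00011 over all genes tested. It was 0.21 within the replicate 1 pair, 0.13 within the other source table, 0.44 against Fgf10 replicate 4 alone and 0.45 with the sex-linked term. Leaving out single libraries moved it between -0.026 and 0.21. Dusp6, another ERK phosphatase, stood at 61.7 and 144 CPM with Fgf1 and at 29.6 to 91.9 CPM with Fgf10, and the groups overlapped. Spry2, a Sprouty protein, stood at 23.3 and 18.9 CPM with Fgf1 and at 5.54, 8.95, 1.03 and 19.9 CPM with Fgf10. Its highest Fgf10 value, in replicate 4, exceeded the lower Fgf1 value, and its log2 difference shrank from 1.28 to 0.08 with the sex-linked term.

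Transcription factors and early genes that ERK induces included no called gene among 27 fitted with the 12 early libraries. Over the 28 measured with all passaged libraries the median log2 fold change was -0.52. Without overlap 3 of the 28 were lower with Fgf1, beside 8.63% of all genes, and 1 was higher, beside 7.32%. Egr2 and Egr3, zinc finger factors of the immediate early response, stood at 1.25 and 2.01 CPM and at 15.8 and 5.64 CPM with Fgf1, and at 4.31 to 24.8 CPM and 24.6 to 31.0 CPM with Fgf10. Jun, an AP-1 subunit, stood at 504 and 567 CPM with Fgf1 and at 700, 1567, 2878 and 826 CPM with Fgf10. Fgf10 replicate 3 stood apart for this group: its listed genes summed to 6828 CPM against 2808 to 4650 CPM in the other Fgf10 libraries and 2469 and 3073 CPM in the Fgf1 libraries. The median was 0.22 within the replicate 1 pair and -0.65 within the other source table. Against Fgf10 replicate 4 alone it was 0.08, and with the sex-linked term it was 0.21, so the sign of this list was not kept. Leaving out single libraries moved the median between -1.07 and -0.10. Among the most abundant members, Klf4, a factor of keratinocyte differentiation, stood at 585 and 314 CPM with Fgf1 and at 453 to 863 CPM with Fgf10. Ier3 stood at 134 and 222 CPM against 158 to 416 CPM, and Junb at 235 and 148 CPM against 155 to 396 CPM, and both overlapped.

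None of the 16 fitted genes for FGF receptors and their binding proteins was called. Fgfr2, whose epithelial form binds Fgf10, stood at 27.5 and 11.3 CPM with Fgf1 and at 36.3, 39.0, 42.8 and 38.6 CPM with Fgf10. Both Fgf1 libraries were below all Fgf10 libraries, with a log2 difference of -1.01 ± 0.54 (SE) in the fit of 18 libraries, which did not pass. The log2 fold change of Fgfr2 was -1.76 without Fgf1 replicate 1 and -0.51 without Fgf1 replicate 2. Fgfr3 stood at 10.4 and 6.04 CPM with Fgf1 and at 7.31 to 23.4 CPM with Fgf10, Fgfr1 at 4.58 and 2.01 CPM against 0 to 3.99 CPM, and both receptors overlapped between media. Fgfr4 had no count in any of the 6 libraries, where 3 counts correspond to 1.21 to 2.44 CPM per library. Gpc1, a heparan sulfate proteoglycan that binds fibroblast growth factors, stood at 30.8 and 35.1 CPM with Fgf1 and at 12.3, 17.1, 10.3 and 14.0 CPM with Fgf10, with an adjusted p of 0.0666. The most abundant members, Cd44, Sdc1, Fgfbp1 and Sdc4, had log2 differences of 0.32, 0.12, -0.16 and 0.29, none of which passed. Over the 19 measured members the median was 0.29. It was 0.078 against Fgf10 replicate 4 alone and 0.083 with the sex-linked term. Gpc1, Hspg2 and Cd44 were higher without overlap, where 7.32% of all genes were so, and Fgfr2 was lower, where 8.63% were.

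Slc16a3, which exports lactate, was also called higher with Fgf1. It stood at 107 and 44.3 CPM with Fgf1 and at 10.5, 0.81, 2.58 and 1.99 CPM with Fgf10, a log2 fold change of 4.20 ± 0.76 (SE, adjusted p = 0.0365). The unpassaged libraries were high with either growth factor, at 127 CPM with Fgf1 and 130 CPM with Fgf10. The 4 libraries with forskolin and the TGF-beta inhibitor ranged from 22.1 to 109 CPM.

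Serpinh1, a collagen chaperone of the endoplasmic reticulum, stood at 135 and 108 CPM with Fgf1 and at 21.6, 13.8, 6.19 and 33.9 CPM with Fgf10 (adjusted p = 0.0189). Tnfaip2, a gene induced by tumour necrosis factor, stood at 77.5 and 43.9 CPM with Fgf1 and at 18.5, 13.0, 12.9 and 6.65 CPM with Fgf10 (adjusted p = 0.0291). Tm4sf1, a membrane protein, stood at 37.5 and 24.2 CPM against 3.61 to 11.7 CPM, and Scn8a, a sodium channel subunit, at 11.2 and 8.46 CPM against 0 to 1.99 CPM. Brinp3, best known from neurons, stood at 61.2 and 37.5 CPM with Fgf1 and at 1.85, 0.81, 0 and 0 CPM with Fgf10. The uncharacterized gene 4732456N10Rik stood at 14.2 and 13.7 CPM against 0.81 to 2.66 CPM. In 9 of the 10 the unpassaged Fgf10 library was above all 4 early Fgf10 libraries, and in 3 of the 10 the unpassaged Fgf1 library was above the unpassaged Fgf10 library. None of the 10 was called with the sex-linked term, where adjusted p-values were 0.0782 for Brinp3 and 0.146 for Tnfaip2 and higher for the others. With that term the Fgf10 level came from replicate 4 alone, which had 0 CPM of Brinp3 and Cd34. Their log2 fold changes went from 6.12 to 9.36 and from 4.07 to 7.58. These larger values rest on that count of 0 and do not measure a larger difference. The log2 fold change went from 4.20 to 5.19 for Slc16a3, at 1.99 CPM in replicate 4, and from 2.25 to 3.17 for Tnfaip2. It was 2.20 both ways for Tm4sf1, and went from 2.70 to 1.84 for Serpinh1 and from 3.52 to 2.26 for Scn8a.

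Cd34, a surface sialomucin that marks stem cells of the hair follicle bulge in mice, was the called gene of the bulge list. It stood at 11.7 and 16.9 CPM with Fgf1 and at 1.23, 0.81, 1.03 and 0 CPM with Fgf10, a log2 fold change of 4.07 ± 0.79 (SE, adjusted p = 0.0494). The unpassaged libraries had 67.1 CPM with Fgf1 and 27.3 CPM with Fgf10, so the early Fgf1 level was below both. Late Fgf1 libraries ranged from 0 to 58.3 CPM with a median of 0.79. Of the 24 bulge genes measured, 4 were higher without overlap and 1 was lower, beside 7.32% and 8.63% of all genes, and the list's median was -0.0073. Sox9, a transcription factor of the outer root sheath and bulge, stood at 280 and 310 CPM with Fgf1 and at 140, 185, 101 and 178 CPM with Fgf10, and Tcf7l1, a repressor of Wnt targets, at 99.2 and 54.0 CPM against 12.9 to 45.2 CPM. Neither passed, with adjusted p-values of 0.511 and 0.290.

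Col4a1, Col4a2 and Sparc, singled out after their values were seen, had higher values in both Fgf1 libraries than in all Fgf10 libraries, without passing the test. Col4a1 and Col4a2, which form the collagen IV network, stood at 7.50 and 10.1 CPM and at 19.2 and 32.6 CPM with Fgf1, and at 0 to 2.66 CPM and 4.07 to 5.32 CPM with Fgf10. Their adjusted p-values were 0.231 and 0.0615. The 2 genes lie head to head on chromosome 8 and overlap at their starts, which the counting may or may not separate. Sparc, a secreted protein that binds collagen, stood at 547 and 285 CPM with Fgf1 and at 57.9, 30.1, 56.8 and 197 CPM with Fgf10 (adjusted p = 0.104). Of 26 TGF-beta target genes measured, which include the collagen IV genes, 22 had a positive log2 difference and 3 were higher without overlap, near the 7.32% of all genes, with a median of 0.50 (0.43 within the replicate 1 pair and 0.38 within the other source table), and none was called.

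Hoxa9 and Hoxb9 were called lower with Fgf1. Hox genes encode homeobox transcription factors that record position along the body axis, and high-numbered members are used at more posterior levels. Hoxb9, at chr11:96271457-96276595 (mm10, plus strand), stood at 0 and 0.40 CPM with Fgf1 and at 33.3, 26.8, 24.8 and 7.98 CPM with Fgf10 (adjusted p = 0.0189). From 1 count in the Fgf1 libraries and 147 in the Fgf10 libraries, its CPM ratio was 114 in favour of Fgf10, with an exact binomial 95% interval of 20.1 to 4533 that covers counting error only. Hoxa9, at chr6:52223100-52231089 (mm10, minus strand), had no count in either Fgf1 library and stood at 38.8, 15.5, 27.9 and 3.32 CPM with Fgf10 (adjusted p = 0.0365). Its pooled Fgf10 level was 36.5-fold above a floor of 3 counts over both Fgf1 libraries, which is 0.61 CPM. The exact binomial 95% lower bound of the ratio, for counting error only, was 29.3. Fgf10 replicate 4, at 3.32 CPM, was much nearer that floor than the other Fgf10 libraries. Fgf10 replicate 4, the library with Y-linked counts, was the lowest Fgf10 library for both genes.

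Among 20 Hox genes measured, 14 had a negative log2 difference, and the median was -0.93, which stayed so with Hoxa9 set against that floor of 3 counts. Those lower without overlap were Hoxa9, Hoxb9, Hoxb3 and Hoxc5, where 8.63% of all genes were so. Hoxa5 was higher without overlap, as were 7.32% of all genes. Hoxb8 stood at 0.83 and 0 CPM with Fgf1 and at 14.2, 13.0, 19.1 and 0.66 CPM with Fgf10, and Hoxc8 at 33.3 and 19.3 CPM against 91.2, 95.2, 142 and 31.2 CPM. For both genes Fgf10 replicates 1 to 3 were high and replicate 4 was level with the Fgf1 libraries. Hoxa5, a more anterior member, stood at 87.9 and 58.4 CPM with Fgf1 and at 33.3 to 51.1 CPM with Fgf10. Against Fgf10 replicate 4 alone the list's median was 0.04, and with the sex-linked term it was 0.10, so its sign flipped. With that term neither Hox gene was called (adjusted p = 0.365 for Hoxa9 and 0.220 for Hoxb9), while the fitted log2 difference of Hoxb9 went from -6.37 to -4.85 and Hoxa9 also stayed lower.

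Among the 5 unpassaged libraries, Xist and these 2 Hox genes were high together in 1. That library, with forskolin alone, had Xist at 20.3 CPM, Hoxa9 at 22.2 CPM and Hoxb9 at 20.3 CPM, while the 4 other unpassaged libraries, all with Y-linked counts, had Hoxa9 at 0 to 1.77 CPM and Hoxb9 at 0.97 to 2.46 CPM. Over the 12 early libraries Hoxa9 was at 15.5 to 38.8 CPM in the 3 Xist libraries and at 0 to 3.32 CPM in the 9 others. The separation was less complete for Hoxb9, where 1 of the 9, an inhibitor library without forskolin, reached 13.6 CPM. In late organoids Hoxb9 overlapped between the 3 Xist libraries, at 6.31 to 11.2 CPM, and the 3 Y-linked libraries, at 4.23 to 19.0 CPM. Late Hoxa9 overlapped too, at 0 to 23.7 CPM and 0 to 15.2 CPM. The part of the source animal in the Hox difference was not tested beyond the fits with that term and within the Y-linked libraries.

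**Figure D2:**
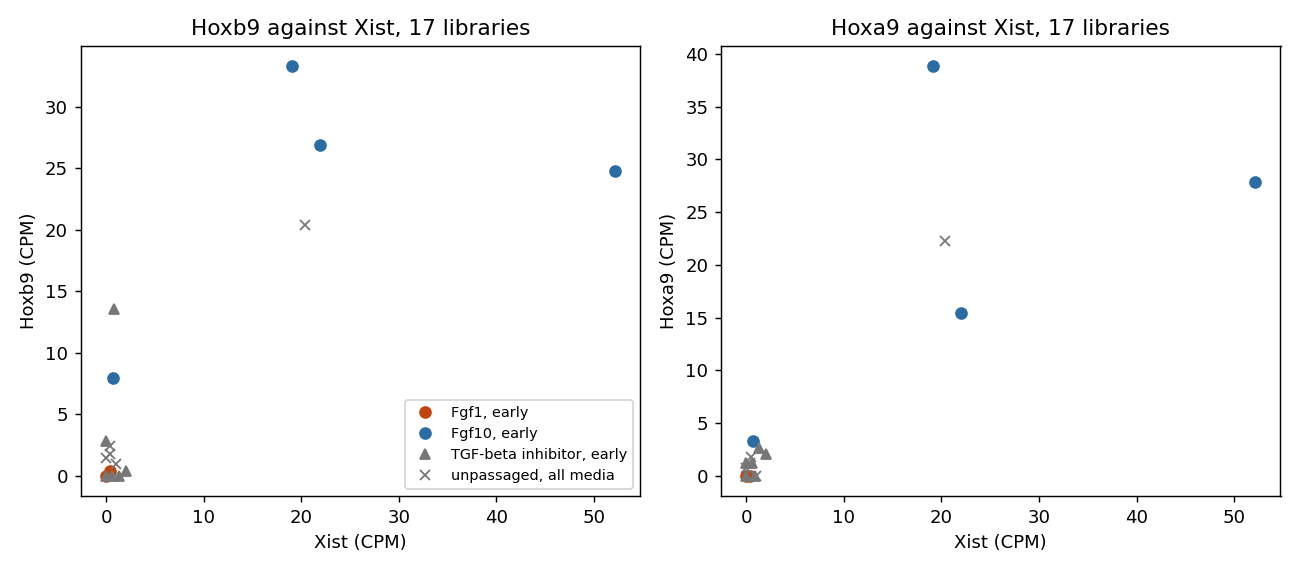
Hoxb9 (left) and Hoxa9 (right) in CPM against Xist in CPM for the 12 early and 5 unpassaged libraries, with colours and symbols for the medium as in the key. The 3 Fgf10 libraries with Xist at 19.1 to 52.1 CPM and the 1 unpassaged library with Xist at 20.3 CPM are the highest for both genes.

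Mid1 was called lower with Fgf1. It encodes a ubiquitin ligase that binds microtubules and is annotated at chrX:169685199-170005736 (mm10, plus strand). Mid1 stood at 6.67 and 5.24 CPM with Fgf1 and at 85.6, 42.3, 50.6 and 73.8 CPM with Fgf10. All 4 Fgf10 libraries were well above both Fgf1 libraries, by a log2 fold change of -3.38 ± 0.38 (SE, adjusted p = 0.00181). With the sex-linked term the difference was -3.62, and within the libraries with Y-linked counts it was -3.61. Both fits set the Fgf1 libraries against Fgf10 replicate 4 alone. In the unpassaged pair Mid1 stood at 0.97 CPM with Fgf1 and 32.3 CPM with Fgf10. The 4 libraries with forskolin and the TGF-beta inhibitor had 79.8 to 99.8 CPM, and the 6 late Fgf1 libraries had 0 to 6.34 CPM.

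Vmn2r55 and Cmah were the other abundant genes called lower, predicted genes left out. Vmn2r55, named as a vomeronasal receptor, stood at 341 and 475 CPM with Fgf1 and at 2080, 3051, 1919 and 4835 CPM with Fgf10, a log2 fold change of -2.85 ± 0.50 (SE, adjusted p = 0.0339). Its family has many similar copies, among which reads may be split. Cmah, the enzyme that converts the sialic acid Neu5Ac to Neu5Gc, stood at 7.50 and 14.9 CPM with Fgf1 and at 35.7, 64.3, 64.0 and 108 CPM with Fgf10 (adjusted p = 0.0494). With the sex-linked term, which rests on Fgf10 replicate 4 alone, their log2 fold changes were -3.57 and -3.25. The inhibitor libraries with forskolin were high for both, at 2233 to 6382 CPM and 64.1 to 157 CPM.

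Among the remaining 8 lower calls, Gm3002 was level with Mid1, at a mean of 61.5 against 63.1 CPM with Fgf10. The others were lower. The Schlafen genes Slfn8 and Slfn9, neighbours on chromosome 11 and similar in sequence, stood at 0.42 to 4.03 CPM with Fgf1 and at 14.5 to 32.5 CPM with Fgf10. Acnat1, an acyltransferase for bile acids and fatty acids, and Cyp2j5, a cytochrome P450, stood at 0.42 to 2.50 CPM with Fgf1 and at 8.01 to 31.9 CPM with Fgf10. Aldh1l1, an enzyme of folate metabolism, stood at 0.42 and 0.40 CPM against 5.54, 5.69, 12.4 and 11.3 CPM, which is 2 counts against 57 and a ratio of 22.1 with a 95% counting interval of 5.84 to 187. The predicted genes Gm3002, 3110070M22Rik and F830016B08Rik stood at 0.83 to 8.46 CPM with Fgf1 and at 5.69 to 77.3 CPM with Fgf10. In 12 of the 13 genes called lower, the unpassaged Fgf1 library was below the unpassaged Fgf10 library, a pair of single libraries with no test.

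The cornified envelope genes had mostly negative differences with Fgf1. Of 57 listed genes 52 were measured, and 50 of these had a negative log2 difference, against 4961 of 9919 genes tested. In 30 of the 52 both Fgf1 libraries lay below all 4 Fgf10 libraries, where 8.63% of all genes did so, and 1 lay above. The median log2 fold change was -1.25. It was -0.58 within the replicate 1 pair, -1.41 within the other source table, -1.001 against Fgf10 replicate 4 alone and -0.98 with the sex-linked term. None of the 52 was called in either fit. The list's summed level was 49021 and 28720 CPM with Fgf1 and 61906, 99577, 66254 and 57139 CPM with Fgf10, so the 2 groups did not overlap. In bulk samples, fewer cells of a type and less RNA per cell cannot be told apart.

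Lor encodes loricrin, the most abundant protein of the cornified envelope, and lies at chr3:92080271-92083142 (mm10, minus strand). It stood at 1904 and 1199 CPM with Fgf1 and at 3426, 4411, 7919 and 5029 CPM with Fgf10, with a log2 difference of -1.74 ± 1.90 (SE) in the fit of 18 libraries. The error takes in the spread of all passaged groups, and the 4 early libraries with forskolin and the inhibitor ranged from 302 to 6452 CPM for Lor. The most negative difference of the list was in Lce1m, a late cornified envelope protein, at 16.2 and 17.3 CPM with Fgf1 and 112, 42.3, 179 and 148 CPM with Fgf10 (-2.83 ± 1.46, SE). Klk5, a protease that drives shedding of the outermost layer, stood at 155 and 127 CPM with Fgf1 and at 354, 478, 466 and 579 CPM with Fgf10. The small proline-rich genes Sprr1a, Sprr1b and Sprr2d, the most abundant members, overlapped between the media. Sprr1b stood at 13222 and 3978 CPM with Fgf1 and at 5695 to 12986 CPM with Fgf10, and Sprr1a at 10779 and 6813 CPM against 7835 to 19461 CPM. Sprr2d was at 5488 and 3599 CPM with Fgf1 and at 7918, 22987, 6868 and 4929 CPM with Fgf10, which overlapped through Fgf10 replicate 4. The Lce1 and Sprr2 families hold near-identical copies, and values of single members are uncertain where reads could be split among them.

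**Figure D3:**
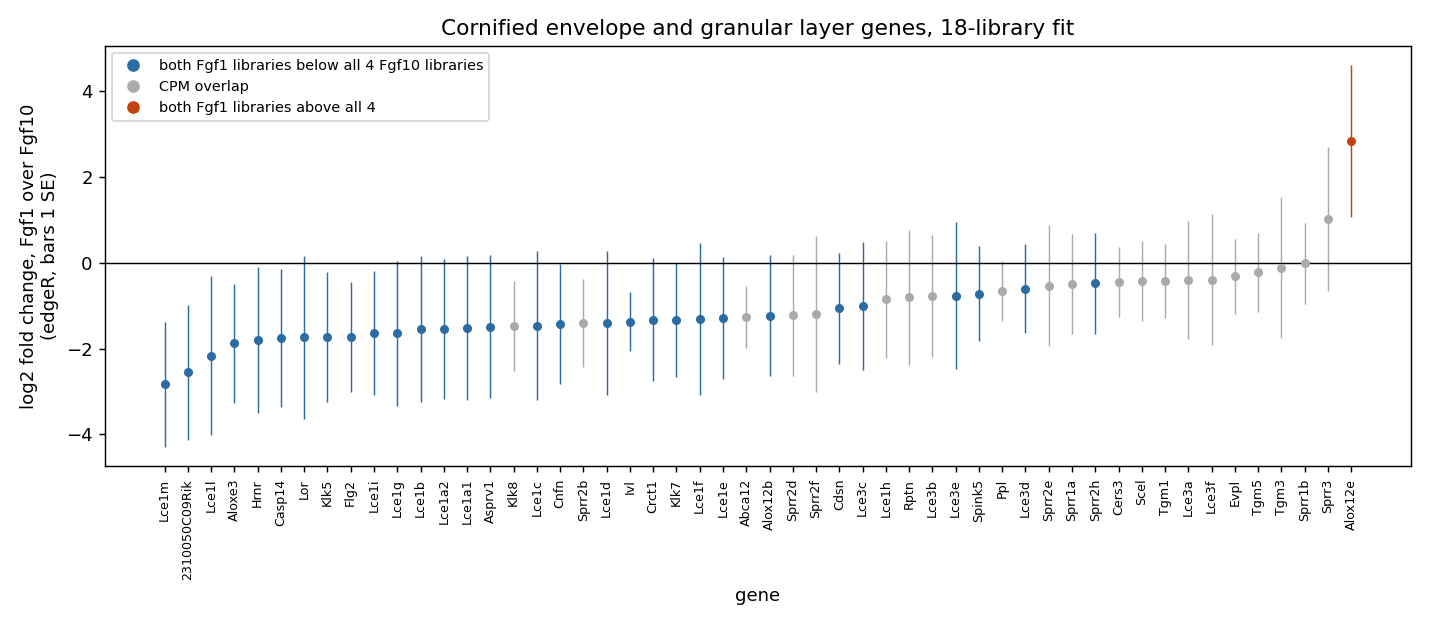
Log2 fold change of Fgf1 over Fgf10 for the 52 measured cornified envelope and granular layer genes in the 18-library fit, sorted, with bars of 1 SE. Points of 50 genes lie below 0, the 30 blue points are genes whose 2 Fgf1 libraries were below all 4 Fgf10 libraries, and many bars cross 0.

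The place of these genes in the genome and the letters of their promoters were also counted. Of the 52 measured genes 33 lie on chromosome 3 between positions 92080271 and 93399442 (mm10), the epidermal differentiation complex. RefSeq promoters (GRCm38.p6), from 250 bases before to 50 after the start, were searched for 46 of the 52 genes, 48 promoters in all. The search left out part of the RefSeq promoters, so a gene without a promoter here need not lack one. The TATA box, searched as TATAAA on both strands, occurred in 17 of the 48 (35.4%), against 13.6% of the 32851 RefSeq promoters searched and 7.17% of 9687 promoters of genes tested. The AP-1 motif, searched as TGANTCA on both strands, occurred in 12 of the 48 (25%), against 7.81% and 5.31%. The cyclic AMP response element TGACGTCA and the ETS motif CCGGAAGT occurred in 0 of the 48. They occurred in 1.79% and 3.89% of all promoters searched and in 3.14% and 8.45% of those of genes tested. A match describes the letters and is no evidence of binding. The promoters of Lor and Lce1m are shown as examples of genes that were low together, 5′ to 3′, with the matched letters in capitals; in Lor the AP-1 motif precedes the TATA box without overlap, and in Lce1m only the TATA box matched.
Lor, chr3:92083093-92083392, minus strand: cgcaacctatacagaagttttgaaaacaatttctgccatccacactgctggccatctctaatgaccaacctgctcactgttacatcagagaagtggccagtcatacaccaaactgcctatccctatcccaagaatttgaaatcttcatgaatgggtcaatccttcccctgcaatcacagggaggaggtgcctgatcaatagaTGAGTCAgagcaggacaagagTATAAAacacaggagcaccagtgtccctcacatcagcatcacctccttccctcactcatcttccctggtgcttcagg
Lce1m, chr3:93019012-93019311, minus strand: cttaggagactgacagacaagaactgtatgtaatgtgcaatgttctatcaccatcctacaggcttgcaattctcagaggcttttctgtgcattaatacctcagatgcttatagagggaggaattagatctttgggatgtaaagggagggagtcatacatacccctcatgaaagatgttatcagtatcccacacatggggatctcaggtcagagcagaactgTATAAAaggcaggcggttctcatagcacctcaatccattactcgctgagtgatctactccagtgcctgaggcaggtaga

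Spinous layer genes showed the same order of the media in their summed level. It was 20339 and 19250 CPM with Fgf1 and 36351, 40000, 37655 and 39278 CPM with Fgf10. The sum spread little inside either group, while single members such as Krt10 and Lgals7 spread more. Most of this sum was Lgals7, Krtdap, Dmkn and Krt10 in every library, so it describes these genes more than the list. Of 26 measured genes 10 were lower with Fgf1 without overlap, as were 8.63% of all genes, and none was higher or called. The median log2 difference was -0.26. It was -0.70 when Fgf1 replicate 1 was left out, -0.17 against Fgf10 replicate 4 and -0.066 with the sex-linked term. Krt10 and Krt1, the paired keratins of suprabasal cells, stood at 2973 and 509 CPM and at 957 and 629 CPM with Fgf1. With Fgf10 they stood at 4259 to 6763 CPM and at 2011 to 5809 CPM. Lgals7, a lectin of stratified epithelia, stood at 2836 and 3198 CPM with Fgf1 and at 7421, 8148, 7178 and 14112 CPM with Fgf10 (adjusted p = 0.273), and Krtdap, a secreted protein of differentiating keratinocytes, at 3215 and 4016 CPM against 5872 to 6913 CPM. Dmkn, another secreted epidermal protein, differed less, at 2878 and 2862 CPM against 2945 to 4626 CPM. Mt4, a metallothionein of differentiating squamous epithelia, stood at 2.08 and 5.64 CPM with Fgf1 and at 53.6, 131, 391 and 33.2 CPM with Fgf10 (adjusted p = 0.253).

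Basal keratinocyte genes had a higher summed level in both Fgf1 libraries. It was 48814 and 50399 CPM with Fgf1 and 40337, 43888, 34693 and 36910 CPM with Fgf10, again without overlap. Most of this sum was Krt14 and Krt5 in every library, so it describes these keratins more than the list. Krt5 alone overlapped between the media, and Krt14 was separated narrowly. Of 23 measured genes 18 had a positive log2 difference, against 4947 of 9919 genes tested. Without overlap 5 were higher, as were 7.32% of all genes, and none was lower, with a median of 0.32 and no call. The median was 0.15 without Fgf1 replicate 2 and 0.47 without Fgf1 replicate 1. Krt14 stood at 31070 and 24618 CPM with Fgf1 and at 24535, 24064, 15612 and 20365 CPM with Fgf10, and Krt5 at 13716 and 20625 CPM against 12074 to 15461 CPM. Itga6, an integrin of hemidesmosomes, overlapped at 171 and 123 CPM against 87.8 to 162 CPM. Ly6a, a surface protein of the interfollicular epidermis, overlapped at 535 and 1601 CPM against 679 to 1316 CPM, as did Cd9, a tetraspanin, at 834 and 893 CPM against 747 to 987 CPM.

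**Figure D4:**
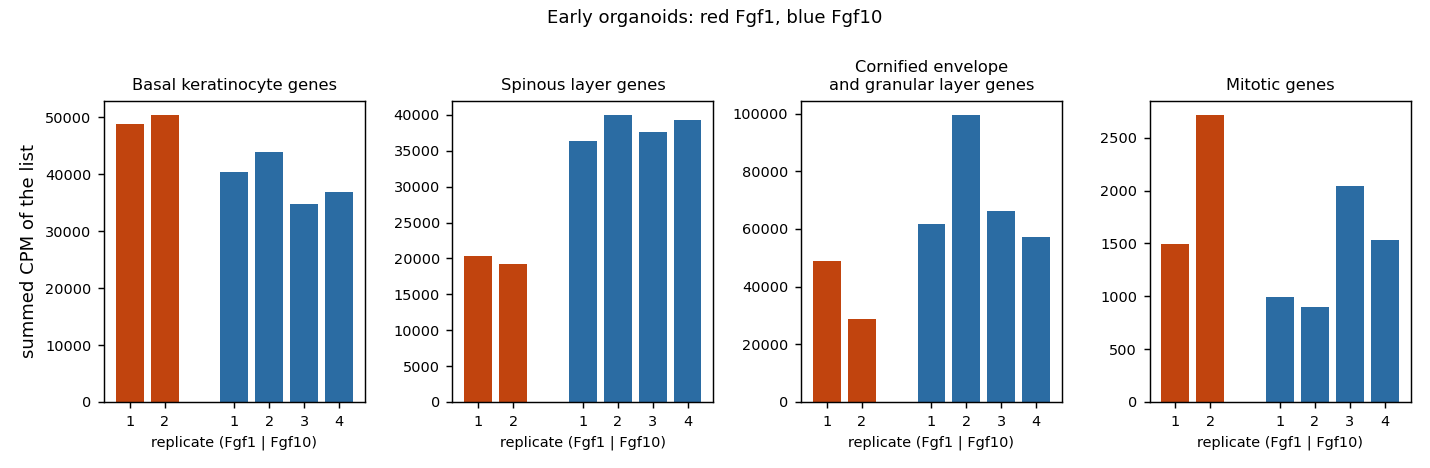
Summed CPM of the basal, spinous, cornified envelope and mitotic gene lists, 1 bar per early library with the replicate number below, red for Fgf1 and blue for Fgf10. The 2 Fgf1 bars lie below all 4 Fgf10 bars for the spinous and cornified lists. They lie above them for the basal list, whose sum is mostly Krt14 and Krt5, and the mitotic bars overlap. Most of the spinous sum is Lgals7, Krtdap, Dmkn and Krt10.

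Mitotic genes had mostly positive differences, which were smaller without Fgf1 replicate 2. Of 29 measured genes 26 had a positive log2 difference, against 4947 of 9919 genes tested, and 8 were higher without overlap, as were 7.32% of all genes. The median was 0.64, with no call. The summed level was 1499 and 2717 CPM with Fgf1 and 997, 900, 2048 and 1532 CPM with Fgf10, so the groups overlapped. Without Fgf1 replicate 2 the median was 0.10. It was 0.49 within the replicate 1 pair and 0.95 within the other source table. Against Fgf10 replicate 4 alone it was 0.38, and with the sex-linked term it was 0.48. Mki67, a marker of cycling cells, stood at 32.1 and 133 CPM with Fgf1 and at 15.4, 35.8, 93.9 and 58.5 CPM with Fgf10. Aurka, a spindle kinase, stood at 27.9 and 43.5 CPM against 12.2 to 24.3 CPM, and Cdca8, a subunit of the chromosomal passenger complex, at 72.1 and 129 CPM against 44.7 to 70.2 CPM, with adjusted p-values of 0.520 and 0.537. Cenpa, the centromeric histone, stood at 157 and 197 CPM against 64.7 to 148 CPM. The abundant members Cdk1, Top2a and Birc5 overlapped, at 255 and 412 CPM against 124 to 366 CPM, at 136 and 429 CPM against 103 to 311 CPM, and at 103 and 237 CPM against 69.9 to 170 CPM. Among 30 DNA replication genes 24 had a positive difference, with a median of 0.14 whose sign was not kept: it was -0.15 without Fgf1 replicate 2, -0.018 within the replicate 1 pair, -0.013 against Fgf10 replicate 4 and -0.065 with the sex-linked term.

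**Figure D5:**
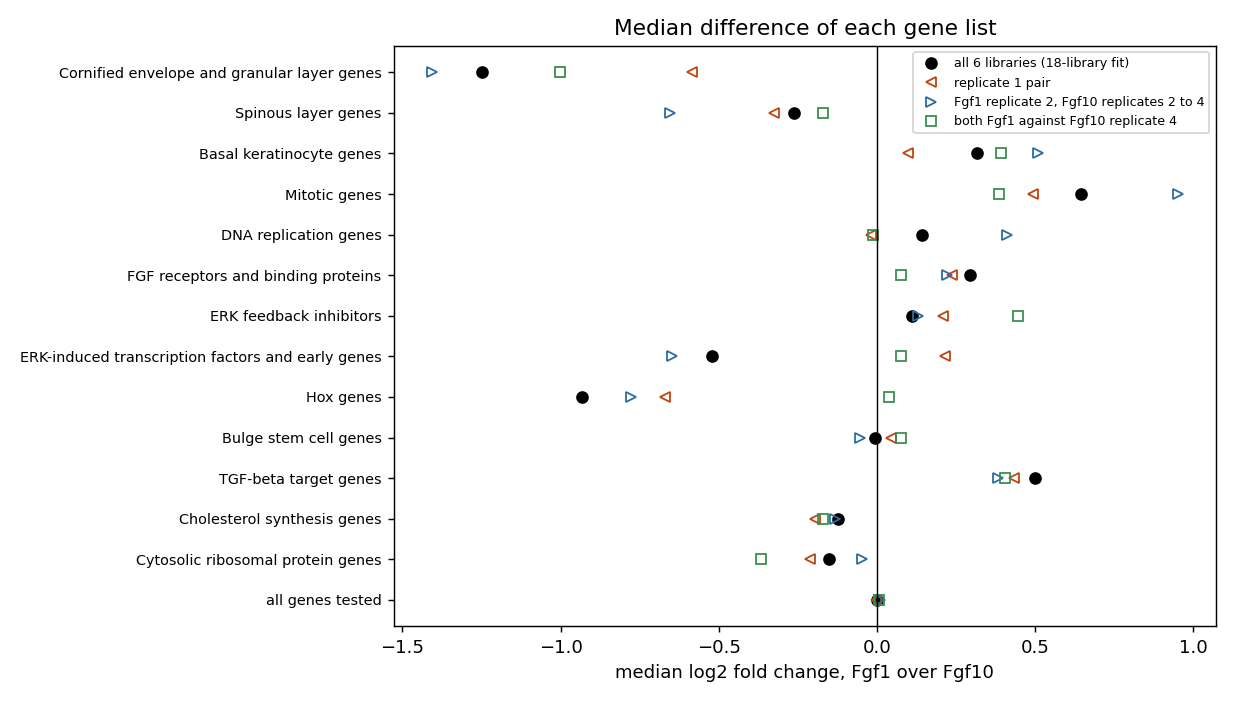
Median log2 fold change of Fgf1 over Fgf10 for 13 gene lists and all genes tested, for all 6 libraries, within each source table and against Fgf10 replicate 4 alone. The cornified envelope list lies at or below -0.58 in all 4 comparisons. The Hox list ranges from -0.93 to 0.04 and the ERK-induced list from -0.65 to 0.22.

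The remaining lists are read against the 7.32% of all genes that were higher and the 8.63% that were lower without overlap. Of 6 outer root sheath and wound keratins measured, 3 (Krt6a, Krt8 and Krt18) were higher and none lower, with a median of 0.40 that was -0.017 with the replicate block in the 6 libraries. Cholesterol synthesis genes had 8 of 24 below all Fgf10 libraries and 1 above, with a median of -0.12. The p53 and senescence list had 6 of 24 lower and 2 higher, and its median of -0.084 was 0.045 with the sex-linked term. The wound and culture activated list had 3 lower and 3 higher of 26 with a median of 0.38, and the 30 cytosolic ribosomal protein genes had 2 lower with a median of -0.15, counts near those shares. The Notch pathway list had none of 11 in either direction. None of these lists held a called gene. Across all lists Slc16a3, in the glycolysis and hypoxia list, was the called gene outside the Hox, bulge and ERK feedback lists.

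The unpassaged organoids gave the same contrast in 1 library each. The test of whether the difference between media changed with passaging called 0 of 9984 genes (0.00%), with 341 at an unadjusted p under 0.05 in edgeR. It takes its spread from the early groups and assumes that the single unpassaged libraries vary like them. Dusp7 was at 197 CPM with Fgf1 and 244 CPM with Fgf10 in unpassaged organoids, the reverse order of the early libraries, with an interaction of 1.58 on the log2 scale that did not pass. Lor was at 161 and 162 CPM, below every early library of either medium, and Krt10 was at 388 and 826 CPM. The cornified list had a median unpassaged difference of 0.55, opposite in sign to the early one, and the mitotic list -0.21. For these lists the difference between the 2 stages was given no test.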

How the data were processed

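Cells of skin organoids were sorted into Trizol and sequenced by CEL-seq2, per the labels' protocols. The deposited files hold whole-number counts per gene for each library, which the authors made from reads; the submitters' processing notes name BWA (0.6.2-r126) and the build mm10. The counting tool, the annotation and any use of molecular identifiers or strand were not given in the sources used here. Spike-in rows were left out, and a gene missing from a file was taken as 0.

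Counts were tested in R 4.3.3 with edgeR 4.0.16 (TMM scaling, genes kept by expression within groups with a minimum count of 10, quasi-likelihood test, Benjamini-Hochberg adjusted p of 0.05) over the 18 passaged organoid libraries. DESeq2 1.42.0 was an alternative, and the scripts were tested on simulated data. Printed CPM are TMM-scaled over 23 organoid libraries. Other scalings, filters, sets of libraries and terms were tried, among them a sex-linked term, the Y-linked libraries alone and leaving out single libraries from the 12 early ones, which were added after seeing the data. Depth, 1489911 to 2562017 counts per library, sets the floor of 3 counts, and intervals and floors cover counting error only.

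Members and gene lists were chosen with earlier results of these data known. Named genes were the 12 with the largest change each way among called genes of at least median expression without overlap, predicted genes left out, up to 4 genes of each described list (called ones, else the most expressed), the receptors and the given markers. As the 18-library fit called none, this was applied to the 12 early libraries, a choice made after values were seen. All other called genes, and Krt1, Mt4, Lce1m, Klk5, Lgals7, Col4a1, Col4a2, Sparc, Gpc1, Hoxb8, Hoxc8, Hoxa5, Dusp6, Spry2, Sox9, Tcf7l1, Aurka, Cdca8, Egr2 and Egr3, were named after their values were seen. A few genes counted in the totals are not reported here. Promoters and positions were read from RefSeq (GRCm38.p6) and the GENCODE annotation of mm10.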

Additional observations from a re-analysis of the deposited data

Results flagged for a closer look

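In 5 of 82 values tested over the 4 Fgf10 libraries, 1 library stood far from the others, where chance gives about 1 in 20. Egr2, an immediate early factor, was highest in Fgf10 replicate 3 at 24.8 CPM, against 4.31 to 7.32 CPM in the others. Lgals7 was highest in Fgf10 replicate 4 at 14112 CPM, against 7178 to 8148 CPM. Sparc was also highest in Fgf10 replicate 4, at 197 CPM against 30.1 to 57.9 CPM. Sprr2d was highest in Fgf10 replicate 2 at 22987 CPM, against 4929 to 7918 CPM. Ly6a was lowest in Fgf10 replicate 1 at 679 CPM, against 1233 to 1316 CPM.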

How the results depend on the processing

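The count of genes differing between Fgf1 and Fgf10 in early organoids, 0 in the 18-library fit, was 15 with DESeq2, 3 without a filter on low counts, 23 with the 12 early libraries and 43 with the 6 libraries. With the 12 early libraries it was 12 with the source table as a term, 8 with the sex-linked term and 1 within the Y-linked libraries. Leaving out each Fgf1 or Fgf10 library gave 0 to 52, the highest without Fgf10 replicate 4 in the 12-library fit. The interaction with passaging gave 0 to 2 when libraries were left out, with 2 without Fgf10 replicate 4. RLE and upper quartile scaling, a stricter filter, thinned counts, genes of both source tables and the table of replicates 2 and above each called 0. The causes of these moves were not tested.

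Replicate numbers were shared but not shown to pair libraries: the correlation of deviations from the group means was 0.35 for replicate 1 and 0.03 for replicate 2. The deviations of the 2 Fgf1 libraries mirror each other, so these are not separate readings. By Spearman correlation of CPM, Fgf1 replicate 1 stood at 0.949 with Fgf10 replicate 1 and 0.939 with Fgf1 replicate 2. With the other Fgf10 libraries it stood at 0.909 to 0.922. With the replicate block the count was 455 in the 6 libraries and 15 in the 12 early libraries. In the 6 libraries that fit left 1 residual degree of freedom to estimate the spread. Fgf10 libraries without an Fgf1 library of the same replicate number did not inform the difference there. The 455 calls thus rest on 2 pairs whose pairing was not shown. With the block the log2 fold change of Cd9 was -0.084 in the 6 libraries and -0.064 in the 12 early libraries. In the 6 libraries the log2 fold change of Ly6a was 0.027 and the log2 fold change of Sdc1 was -0.13 with the block.

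Refits of single genes, 1931 in all, were set against the fit of all passaged libraries, which called no gene. Of these, 1676 kept direction and stayed uncalled, 207 became called and 48 changed sign, all of them in genes that were not called. A refit that lost a call of the early-library fit is counted among those that stayed uncalled. These counts therefore do not show how stable the calls of the early-library fit were. With the sex-linked term and within the Y-linked libraries, Fgfbp1 was 0.089 and 0.091, Fgfr3 0.17 in both, Ier3 0.18 in both, Sdc4 -0.021 and -0.018 and Sprr1b 0.50 in both, and Junb was 0.00073 in the Y-linked libraries. The log2 fold change of Sprr1b was 0.0038 with upper quartile scaling, 0.0044 without a filter and 0.014 with the stricter one. Ly6a was 0.087 with the source table term and 0.34 within the table of replicates 2 and above. When single libraries were left out, log2 differences ranged from -0.13 to 1.09 for Birc5, -0.030 to 0.11 for Cd9, -0.11 to 1.15 for Dusp6, -0.0095 to 0.61 for Krt5, -1.07 to 0.54 for Ly6a, -0.67 to 1.40 for Mki67, -1.11 to 0.61 for Sprr1b and -0.41 to 1.28 for Top2a. The log2 fold change of Sdc1 then ranged from -0.062 to 0.24. Of 810 refits of list medians 44 moved by more than the spread between libraries; the Hox median was -1.42 with the block in the 6 libraries and 0.36 in the Y-linked libraries. With 2 Fgf1 libraries, the sex-linked class of 3 Fgf10 libraries and counts near the floor limit what could be detected.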
